A study of Mus musculus with 144 samples.

Results

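Mouse primary hepatocytes were followed through 5 days of culture with the dioxin TCDD, and the change in gene expression between 24 h and 120 h was measured. The members are the 8 RNA-Seq libraries labelled wild-type and TCDD at those hours, 4 at 24 h and 4 at 120 h, of 36 groups of 4 libraries in the whole series. The 8 vehicle libraries of the same label and hours, 4 at 24 h and 4 at 120 h with DMSO, gave the change without TCDD, so that the size of the culture change could be compared between treatments. The hepatocytes came from livers of male C57BL/6NCrl mice, to which the labels give an age of 28 days, and received 10 nM TCDD or DMSO in a serum-free medium with dexamethasone on type I collagen. The series also holds hepatocytes of mice that lack a dioxin response element in *Pkm*. *Pkm* itself went against those labels: at 12 h it was at 157 ± 51.8 CPM (counts scaled to library size) with TCDD and 47.7 ± 7.32 with DMSO in libraries labelled Pkm-delta-DRE, and at 46.6 ± 28.9 and 41.4 ± 13.4 in those labelled wild-type (SD, n = 4). Groups are therefore named by label only, and both treatments carry the same label here. The labels name no animal, isolation or plate for a library and give conflicting plate formats, so the p-values measure the spread between these libraries, part of which may be technical.

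Freshly isolated hepatocytes on a rigid collagen surface are known to lose liver functions such as plasma protein secretion and cytochrome P450 expression, and to gain cytoskeletal, matrix and progenitor-type transcripts, a process called dedifferentiation. TCDD binds the aryl hydrocarbon receptor (AHR), which pairs with ARNT and binds dioxin response elements built around the core letters GCGTG. Its classical targets, the AHR battery, include *Cyp1a1*, *Cyp1a2* and *Cyp1b1* (P450 enzymes), *Ahrr* (the AHR repressor), *Tiparp* (an ADP-ribosyltransferase that limits AHR signaling) and *Nqo1* (a quinone reductase).

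The 16 libraries held 15887037 to 30719161 counts on genes. Between 16868 and 19846 genes were detected under TCDD at 24 h and between 19791 and 21105 at 120 h, and unmapped pairs made up 5.82 to 8.94% and 3.27 to 5.41% of all pairs, so that the unmapped share moved with the hour. Levels are given as CPM, the counts of a gene relative to the total of its library after scaling by the trimmed mean of M values (TMM). Libraries 69, 70 and 72 of TCDD at 120 h differed from each other by 3.16 to 4.02 times the sampling noise, while the other 21 pairs within a group differed by 8.01 to 48.8 times. They differed by more than sampling noise and were kept as separate samples, but the spread of this group rests largely on library 71, which stood apart. *Alb* (albumin), the defining hepatocyte transcript, was present in all 8 TCDD libraries, and the level of library 71 is given for many genes in which it stood apart.

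Hepatocytes under TCDD changed broadly between 24 and 120 h. Of 15009 genes tested, 5972 (39.8%) changed at least 1.5-fold with an adjusted p-value under 0.05 in edgeR's quasi-likelihood test, 3172 (21.1%) higher and 2800 (18.7%) lower at 120 h. At least 8-fold changes were called for 556 rising and 289 falling genes. The 4 libraries of 24 h did not overlap those of 120 h for 6732 genes (44.9%). With libraries 69, 70 and 72 summed into 1, 4521 genes were called, and without libraries 71 and 35 (a DMSO library of 120 h) 6175.

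The same hours in DMSO moved 6956 genes (46.3%), 4223 (28.1%) higher and 2733 (18.2%) lower. The order of the treatments turned with the fraction of pairs outside genes as a covariate, where 3778 genes were called in DMSO and 5916 under TCDD. Without library 20 (DMSO, 24 h) the counts were nearly equal, 6264 in DMSO and 6275 under TCDD. Of the genes called under TCDD, 81.7% were called in the same direction in DMSO, which was 70.1% of the genes called in DMSO. The sole gene called in opposite directions was *Ccdc141*, named after its values were seen, with a log2 change of -0.98 under TCDD and 0.87 in DMSO. Across genes, which are not independent replicates, the changes had a Pearson r of 0.87 and a Spearman rho of 0.864. The share of called genes that rose was 53.1% under TCDD and 60.7% in DMSO, 54.1% and 57.7% with RLE size factors, but 47.5% and 44.5% when all libraries of the series were filtered, scaled and fitted together.

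**Figure D1:**
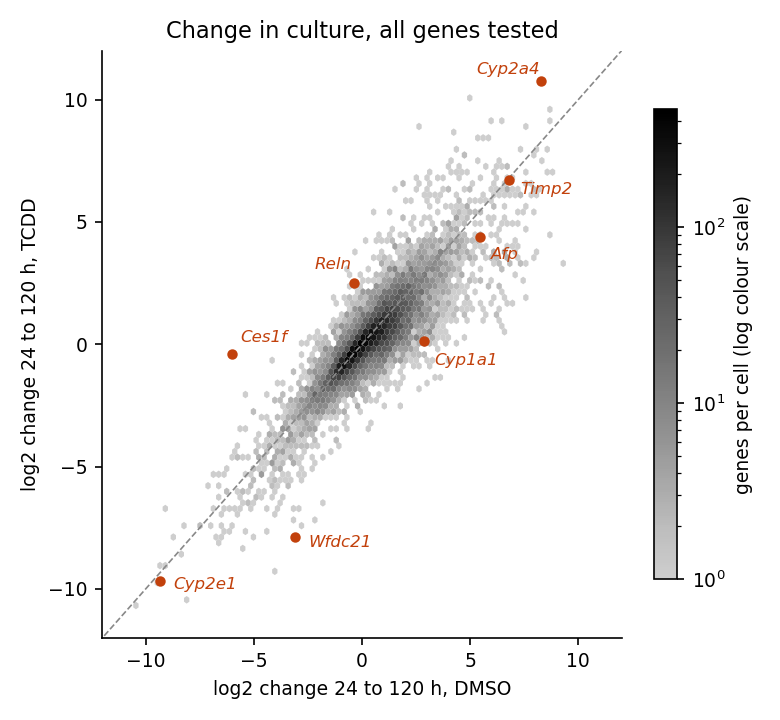
Each tested gene by its log2 change from 24 to 120 h in DMSO (x axis) and under TCDD (y axis), with darker cells holding more genes on a log colour scale and the dashed line marking equal changes. *Timp2* and *Cyp2e1* lie near the line towards its ends, *Cyp2a4* (8.29 in DMSO, 10.77 under TCDD) above it at the top, and *Ces1f*, at -6.01 in DMSO and -0.40 under TCDD, far from it.

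A difference of changes was tested for each gene as the TCDD change minus the DMSO change. It was called for 1 gene of 15009 (0.00666%), *Ces1f*, and the next adjusted p was 0.246. At an unadjusted p under 0.05 there were 1129 genes, 352 with a larger and 777 with a smaller signed change under TCDD. DESeq2 called 35 genes, and a fit with 1 surrogate variable called 20, among which *Ces1f* was common to both and to the main fit.

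The amount of culture change was then summarized by a score whose genes were ranked outside these 16 libraries. Only genes that passed the count filter both there and in these 16 libraries could be chosen. The score of a library was the mean log2(CPM + 1) of 200 genes that rose between 24 and 120 h in DMSO libraries labelled Pkm-delta-DRE, minus the mean of 200 that fell there. Under TCDD it was -4.31, -4.20, -4.24 and -4.53 in the 4 libraries of 24 h and 1.45, 1.48, 1.58 and 1.51 in those of 120 h. In DMSO it was -4.28, -4.30, -4.30 and -4.78 at 24 h and 2.01, 0.234, 1.82 and 1.78 at 120 h. The hours did not overlap under either treatment, and library 34 (DMSO, 120 h) was the lowest of its group.

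The score rose by 5.83 under TCDD and by 5.87 in DMSO (exact permutation tests, two-sided, p = 0.0286 each, the smallest that 4 against 4 allows, adjusted p = 0.0429 over 3 score tests). The TCDD change minus the DMSO change was -0.0475, which did not pass (exact permutation of treatment within each hour, 4900 assignments, p = 0.952). Its 95% interval, by inverting that test, ran from -0.955 to 1.195, which is -16.3% to 20.3% of the change in DMSO. This result rests on library 34: without it the change in DMSO was 6.28 and the difference -0.456, or -7.26% of that change, and passed (exact permutation, 2450 assignments, p = 0.0241, adjusted p = 0.0286, 95% interval -1.145 to -0.11). Library 34 was singled out after each library had been left out in turn, because its removal changed the outcome. The adjusted p does not allow for that choice. Of the 400 score genes, 398 moved under TCDD in the direction they were chosen for and 386 were called, and the median size of change was 3.70 under TCDD and 3.63 in DMSO on the log2 scale.

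Scores also climbed through the hours between under both treatments. Group means under TCDD were -2.27 ± 0.302 at 48 h, -0.78 ± 0.735 at 72 h and 0.793 ± 0.129 at 96 h (SD, n = 4). In DMSO they were -2.08 ± 0.453, -0.423 ± 0.677 and 1.08 ± 0.267. The TCDD mean minus the DMSO mean was -0.191, -0.357 and -0.285 at those 3 hours, and the groups overlapped at each. In 5 unpaired exact permutation tests of TCDD against DMSO from 24 to 120 h, chosen after the scores were seen, the smallest p was 0.143. It was at 96 h, with an adjusted p of 0.679.

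**Figure D2:**
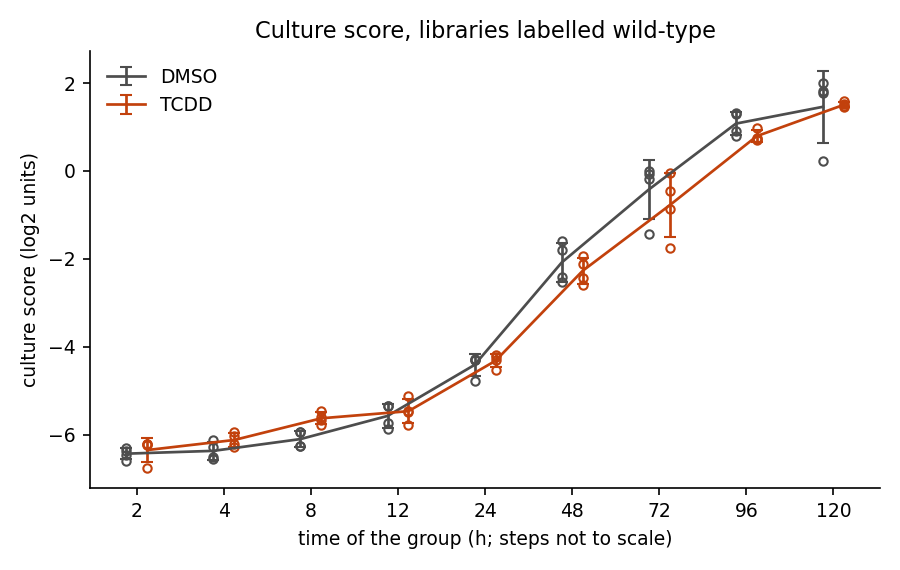
Culture score (log2 units) of every library labelled wild-type at 9 time points, with open circles for libraries and lines with bars for the mean and SD of 4. Both treatments climb, from a mean of -6.35 at 2 h through -4.32 at 24 h to 1.51 at 120 h under TCDD and from -6.44 through -4.41 to 1.46 in DMSO, and overlap at each hour from 24 h.

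The genes that rose most under TCDD encode a P450, matrix proteins and membrane or signaling proteins. *Cyp2a4*, a steroid hydroxylase whose reads can be shared with its near copy *Cyp2a5*, stood at 0.0564, 0, 0.200 and 0 CPM at 24 h and at 147, 141.9, 44.5 and 149 CPM at 120 h. Its libraries of 120 h were all above those of 24 h, with library 71 the lowest, and its log2 change was 10.77 (standard error 0.78, adjusted p = 4.22e-08) against 8.29 in DMSO, where it reached 10.5 to 36.3 CPM. At 120 h it was higher under TCDD than in DMSO by 2.60 on the log2 scale (adjusted p = 0.00663), 1 of 198 genes (1.32%) called at that hour.

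*Timp2*, an inhibitor of matrix metalloproteinases, rose from 1.69, 0.832, 0.667 and 0.458 CPM to 89.4, 98.3, 118.2 and 90.1 CPM. The 4 libraries of 120 h were close together, and the log2 change of 6.72 (standard error 0.39, adjusted p = 2.40e-09) stood beside 6.82 in DMSO. *Marcks*, an actin-binding substrate of protein kinase C, rose from 1.92 to 3.94 CPM at 24 h to 185, 183, 273 and 177 CPM, by 6.13 on the log2 scale under TCDD and 6.10 in DMSO. *Fgfbp1*, which releases fibroblast growth factors from the matrix, reached 211, 204, 32.5 and 192 CPM, with library 71 again lowest, and rose by 7.34 (DMSO 5.66).

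The remaining 6 of the 10 largest rises were *Ms4a4d* (7.39), the ephrin receptor gene *Epha4* (7.07), the procollagen peptidase gene *Adamts14* (6.43), the calcium-binding protein gene *S100g* (6.32), the kinase gene *Nrk* (6.10) and the RNA-binding protein gene *Mex3a* (6.01). All 10 were called in DMSO as well, with log2 changes from 4.91 to 8.29, and for none of them was the difference of changes called.

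The 10 largest falls were of secreted liver proteins and metabolic enzymes. *Saa2*, an acute-phase serum amyloid A gene that shares much of its sequence with *Saa1*, stood at 4382, 5514, 342 and 1257 CPM at 24 h and at 2.66, 1.72, 2.55 and 1.76 CPM at 120 h. The libraries of 24 h spread over more than a factor of 10 and those of 120 h over a narrow range, without overlap, and the log2 change was -10.37 (standard error 1.55, adjusted p = 9.03e-05) against -7.99 in DMSO. *Saa1* fell by 7.96 on the log2 scale.

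*Cyp2e1*, the ethanol-inducible P450 of hepatocytes around the central vein, fell from 207, 113.7, 305 and 407 CPM to 0.0484, 0.104, 0.794 and 0.325 CPM. Every library of 120 h was under 1 CPM, and the log2 change was -9.69 (standard error 0.88, adjusted p = 9.66e-07) against -9.34 in DMSO. *C8a*, a complement component, fell from 246, 185, 97.5 and 112.5 CPM to under 1 CPM in each library, a log2 change of -8.27 against -5.40 in DMSO.

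The others were *Hsd17b6* (a steroid dehydrogenase, -8.47), *Apoa5* (an apolipoprotein that controls plasma triglycerides, -7.98), *Cyp3a11* (the main pregnane X receptor-induced P450, -7.98), *Cyp4a14* (a fatty acid hydroxylase, -7.91), *Wfdc21* (-7.89) and *Cyp2d40* (-7.76). All 10 were also called as falls in DMSO. *Wfdc21* differed most in fitted size, at -3.09 in DMSO, where library 34 held 163 CPM and the other 3 libraries of 120 h held 3.18 to 8.82 CPM. Library 34 also had the highest *Saa2*, *Saa1*, *C8a*, *Apoa5*, *Cyp3a11* and *Cyp2d40* of its group, and its part in the smaller DMSO changes was not tested.

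**Figure D3:**
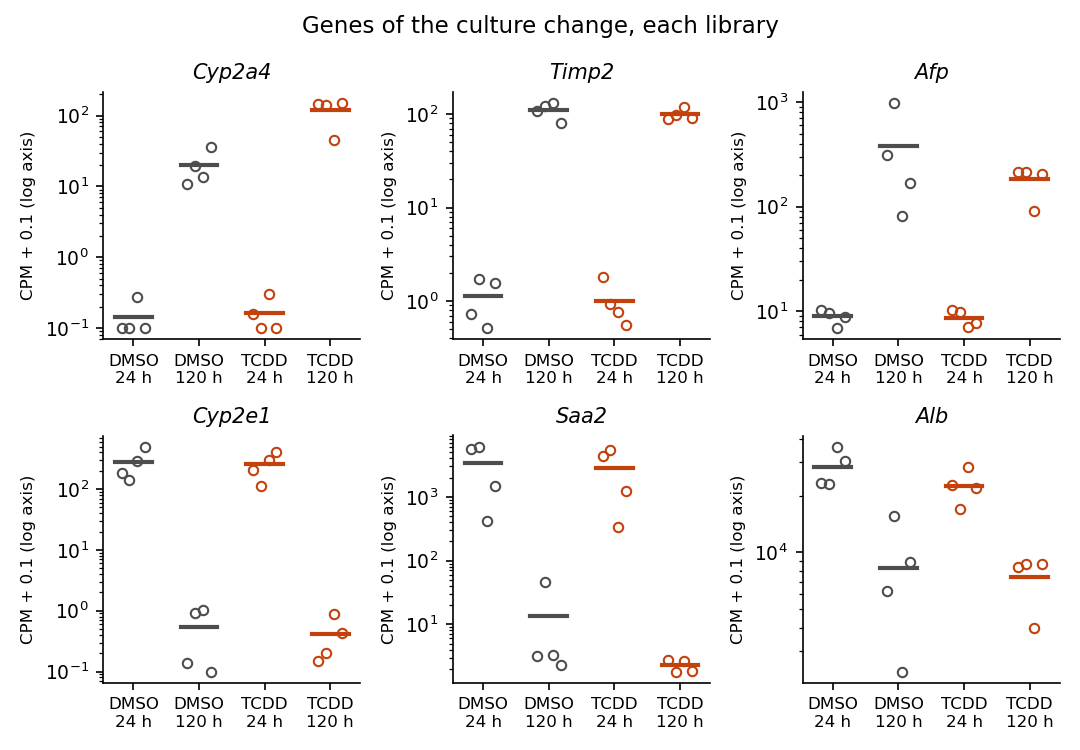
Level of 6 genes in each of the 16 libraries, as CPM plus 0.1 on a log axis, with open circles for libraries and bars for the mean of 4. *Cyp2a4*, *Timp2* and *Afp* are higher and *Cyp2e1*, *Saa2* and *Alb* lower at 120 h than at 24 h in every library of both treatments, and *Cyp2a4* at 120 h is higher in every TCDD library (44.5 to 149 CPM) than in any DMSO library (10.5 to 36.3 CPM).

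Gene lists describe the same change by function, each count to be read beside the 21.1% of genes that rose and 18.7% that fell under TCDD. Of 25 genes for proteins that hepatocytes secrete, 22 fell and 0 rose, with a median log2 change of -1.67 (DMSO -1.81). *Alb* stood at 22760, 16926, 28531 and 21858 CPM at 24 h and at 8356, 8682, 3965 and 8644 CPM at 120 h. The hours did not overlap, library 71 was lowest, and the log2 change was -1.60 (standard error 0.41, adjusted p = 0.00396) against -1.77 in DMSO. With the unmapped share, which moved with the hour, as a covariate it was -0.832 and was not called. *Fgg*, the fibrinogen gamma chain, fell by 6.66.

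Drug-metabolizing enzymes fell in 18 of 23 cases (median -3.70, DMSO -3.20). The 3 that rose were *Cyp2a5*, a coumarin hydroxylase, by 2.62 (library 71 at 353 CPM, the others at 1451 to 1507 CPM), *Fmo1*, a flavin monooxygenase, by 1.5, and *Ugt2b36*. Of 20 urea cycle and amino acid genes 16 fell (median -1.90, DMSO -1.55), led by *Hpd* (-7.52), of tyrosine breakdown, and *Agxt* (-6.64), of glyoxylate removal, while *Glul*, glutamine synthetase, rose by 1.00, with library 71 highest at 171 CPM. Among 16 tested genes of bile acid synthesis and transport 9 fell and 3 rose. The conjugating acyl-CoA synthetase gene *Slc27a5* fell by 6.43 and the uptake carrier gene *Slco1b2* by 4.62. *Slco1b2* was low at both hours, at means of 1.73 and 0.0667 CPM. The export pump genes *Abcc4* and *Abcc2* rose by 5.53 and 2.12, the latter with library 71 lowest at 532 CPM.

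*Abcc4* moved with little spread, from 20.7, 13.8, 19.9 and 17.7 CPM to 850, 860.0, 739 and 876 CPM. In DMSO its libraries of 120 h lay at 350.0 to 390.0 CPM, below every TCDD library, and its log2 change there was 5.23.

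Of 22 genes of lipogenesis and cholesterol synthesis 17 fell under TCDD and 14 in DMSO (medians -1.06 and -0.78). *Thrsp*, a lipogenic regulator, fell by 3.49, and *Gpam*, the first step of triglyceride synthesis, rose by 1.08. Of 23 genes of fatty acid oxidation 5 rose, among them *Acot1* (an acyl-CoA thioesterase, 4.67, with library 71 highest at 224 CPM), and 7 fell, among them *Cyp4a10* (-5.88) and *Fabp1* (the liver fatty acid-binding protein, -4.26). Gluconeogenesis and glycogen genes fell in 7 of 14 cases, with *Gys2*, liver glycogen synthase, at -2.87 and *Khk*, ketohexokinase, at -2.84.

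Of 18 liver-enriched transcription factors 8 rose and 5 fell, against 5 and 4 without libraries 35 and 71 and 7 and 2 with libraries 69, 70 and 72 summed. *Onecut1*, expressed in liver development, rose by 3.25 and *Nr0b2*, a repressor of bile acid synthesis, by 2.68. *Foxa3* fell by 2.12 and *Nr1i3*, the constitutive androstane receptor, by 2.26. *Nr0b2* and *Nr1i3* were low under TCDD, at means of 0.182 and 1.10 CPM at 24 h and 1.17 and 0.222 CPM at 120 h. Library 71 was highest for *Nr0b2* at 2.55 CPM, and *Nr0b2* was not called in DMSO. *Hnf4a*, the central hepatocyte regulator, was at 830.5, 607, 602 and 623 CPM at 24 h and 496, 468, 575 and 486 CPM at 120 h. The groups did not overlap, but the log2 change of -0.39 did not pass (adjusted p = 0.0589).

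Extracellular matrix and remodelling genes rose in 22 of 29 cases and fell in 1 (median 1.53, DMSO 1.20). *Mmp12*, a macrophage-type elastase, rose by 5.93, reaching 31.9, 31.1, 2.78 and 32.5 CPM, with library 71 lowest, and *Plaur*, the urokinase receptor, fell by 0.86. Mesenchymal and cytoskeletal genes were split, with 8 of 26 higher and 9 lower. *Anxa1* (annexin A1) rose by 4.49 and *Tuba1a* (an alpha-tubulin) by 4.14, and *Tpm2* (a tropomyosin) fell by 4.03 and *Tubb6* (a beta-tubulin) by 2.41. *Vim*, vimentin, went from 975, 966, 445 and 505 CPM to 1153, 1224, 1697 and 1208 CPM, without overlap and by 0.87 on the log2 scale (adjusted p = 0.00753), and by 1.08 in DMSO. Its call was lost with the unmapped share as a covariate (0.63) and in the fit of all libraries (0.86).

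Of 17 epithelial junction genes 7 fell, with the hepatocyte keratins *Krt18* at -2.25 and *Krt8* at -2.16, and 2 rose, *Cldn2* (a channel-forming claudin) by 1.59 and *Epcam* by 1.86. *Epcam* was low, at means of 0.413 and 1.52 CPM under TCDD, and its log2 change in DMSO was 0.04. The Hippo pathway list holds targets together with the effectors *Yap1*, *Wwtr1* and *Tead1*. Its genes rose in 9 of 15 cases (median 0.77, DMSO 1.28), led by *Arhgef17* (a guanine nucleotide exchange factor, 5.40) and *Axl* (a receptor kinase, 2.44).

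Fetal liver and progenitor markers rose in 12 of 15 cases (median 3.13, DMSO 3.24). *Afp*, alpha-fetoprotein, stood at 10.3, 9.67, 6.94 and 7.59 CPM at 24 h and at 216, 215, 91.2 and 205 CPM at 120 h. All libraries of 120 h were above those of 24 h, with library 71 lowest, and the log2 change was 4.40 (standard error 0.63, adjusted p = 5.76e-05) against 5.44 in DMSO. *Gpc3* and the imprinted noncoding RNA gene *H19* had 0 counts in all 4 libraries of 24 h and 44 and 42 counts over those of 120 h, so that they were at least 11.8-fold and 11.3-fold higher against a floor of 3 counts over the group.

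Of 26 cell cycle genes 11 fell, here listed after their values were seen, namely *Mcm2* to *Mcm7*, *Pcna*, *Tyms*, *E2f1*, *Ccne1* and *Ccne2*, which serve entry into and progress through DNA replication. The 7 that rose were *Ccnd1*, the G1 cyclin, and *Ccnb1*, *Ccnb2*, *Cdc20*, *Plk1*, *Foxm1* and *Top2a*, which act in G2 and mitosis. *Mcm5*, a subunit of the replicative helicase, fell from 60.7, 71.6, 80.3 and 111.8 CPM to 11.2, 11.2, 11.8 and 13.3 CPM, by 2.77 on the log2 scale (DMSO -2.88). *Ccnd1* rose from 4.40, 3.39, 7.41 and 5.89 CPM to 38, 40.8, 59.8 and 34.7 CPM, by 3.04 (DMSO 2.64). Neither gene's hours overlapped. *Mki67*, a proliferation marker, was low throughout, at 1.18 to 6.09 CPM at 24 h and 1.81 to 8.43 CPM at 120 h, and did not pass (log2 change 0.82, adjusted p = 0.225).

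Of 20 genes of the p53 list, which holds *Trp53* itself beside its targets, 9 rose and 2 fell. *Pmaip1* (a proapoptotic BH3 protein) was at 4.22, *Eda2r* at 1.88 and *Plk3* at -2.13. *Cdkn1a*, the p21 cell cycle inhibitor, did not pass (0.07, adjusted p = 0.695). NRF2 targets rose in 9 of 21 cases, including *Cbr3* (2.38) and *Gstm1* (1.94), in both of which library 71 was lowest at 120 h (59.6 and 2913 CPM), and *Gstp1* fell by 0.78. Of 21 genes of the unfolded protein and integrated stress responses 3 rose and 2 fell. Genes of the mitochondrial genome fell in 8 of 11 cases under TCDD and in 8 in DMSO, with *mt-Nd1* (a complex I subunit) going from a mean of 3748 CPM to 2307 CPM (-0.70), *mt-Co1* not passing (-0.33, adjusted p = 0.236) and *mt-Co3* listed at only 6.16 and 3.07 CPM. The number of falls under TCDD was 4 with libraries 69, 70 and 72 summed and 5 without libraries 35 and 71.

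*Pkm*, the pyruvate kinase gene targeted elsewhere in the series, stood at 50.6, 56.3, 162 and 137.2 CPM under TCDD at 24 h and at 301, 311, 411 and 292 CPM at 120 h. In DMSO it was at 44, 41.6, 220.1 and 102.3 CPM and at 236, 172.1, 483 and 213 CPM. The hours did not overlap under TCDD and did in DMSO, and the log2 changes were 1.70 (standard error 0.53, adjusted p = 0.0169) and 1.43 (adjusted p = 0.0324). The call under TCDD was lost without library 54 (1.496), when no low-count filter was set (1.72), with the unmapped share as a covariate (1.304) and with libraries 69, 70 and 72 summed (1.82). Counts per gene do not separate its M1 and M2 isoforms. Among 17 fetal and general glycolytic isozymes *Hk1* (hexokinase 1) and *Pfkp* also rose, and 7 fell, including *Ldha* (lactate dehydrogenase A, -1.78) and *Aldoc* (-1.65).

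Of 24 inflammatory genes 7 fell and 2 rose, *Ccl20* (a chemokine, 2.38) and *Socs3* (a cytokine signaling inhibitor, 1.01), with library 71 highest for *Ccl20* at 20.1 CPM against 4.63 to 6.24 CPM in the others. The falls numbered 14 without library 71 and 17 without libraries 35 and 71. Interferon-stimulated genes gave 2 falls and 1 rise of 22, the rise being *Ifit2* (2.46), and in DMSO 2 falls and 5 rises. Their falls under TCDD numbered 7 without library 71 and 9 without libraries 35 and 71. *Lcn2*, the iron-scavenging lipocalin, stood at 4656, 5418, 1650.4 and 3343 CPM at 24 h and at 915, 955, 6213 and 914 CPM at 120 h. *Isg15*, a ubiquitin-like interferon response gene, stood at 11.6, 18.6, 31.4 and 9.82 CPM and then at 5.46, 8.17, 58.6 and 5.43 CPM. For both, library 71 was above every library of 24 h and the other 3 were below every one. The summed level of the inflammatory list was 8069 CPM in library 71 and 1576 to 1640 CPM in the other libraries of TCDD at 120 h. It was 6078 CPM in library 35 and 1129 to 3082 CPM in the other libraries of DMSO at 120 h.

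**Figure D4:**
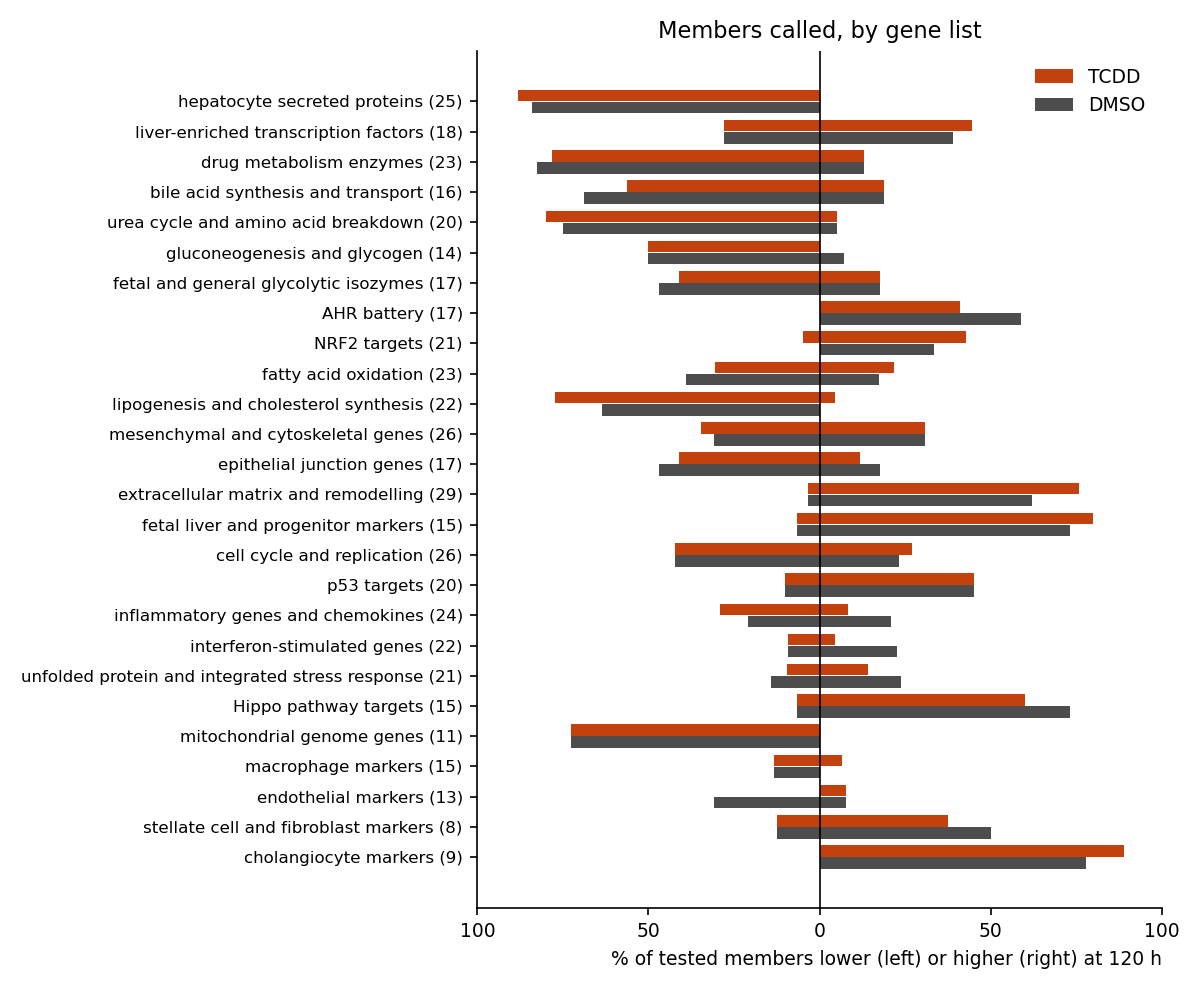
Share of the tested members of each gene list (number tested in parentheses) that were called lower (left) or higher (right) at 120 h than at 24 h, under TCDD and in DMSO. Secreted proteins (22 of 25 lower), drug metabolism (18 of 23 lower) and urea cycle genes (16 of 20 lower) lie to the left, and matrix (22 of 29 higher) and fetal liver genes (12 of 15 higher) to the right, under TCDD.

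The AHR battery list of 18 genes also holds *Ahr* and *Arnt*. Of its members 17 were tested, and 7 of these rose between 24 and 120 h under TCDD (10 in DMSO) and 0 fell. The rises under TCDD numbered 6 with libraries 69, 70 and 72 summed and 8 without libraries 35 and 71. *Cyp1a1*, whose change under TCDD was not called, and *Cyp1b1* and *Ahrr*, which rose, are shown by the 300 bases around their start sites (250 before and 50 after, RefSeq, GRCm38.p6, all on the coding strand). The dioxin response element core, GCGTG or its reverse complement CACGC, is in capitals.
*Cyp1a1*, chr9:57697363-57697662, plus strand: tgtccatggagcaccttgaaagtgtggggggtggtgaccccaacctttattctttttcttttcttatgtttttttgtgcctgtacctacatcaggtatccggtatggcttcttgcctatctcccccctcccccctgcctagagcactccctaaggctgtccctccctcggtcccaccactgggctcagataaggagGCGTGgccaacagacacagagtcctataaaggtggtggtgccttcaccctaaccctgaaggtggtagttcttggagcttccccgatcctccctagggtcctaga
*Cyp1b1*, chr17:79715012-79715311, minus strand: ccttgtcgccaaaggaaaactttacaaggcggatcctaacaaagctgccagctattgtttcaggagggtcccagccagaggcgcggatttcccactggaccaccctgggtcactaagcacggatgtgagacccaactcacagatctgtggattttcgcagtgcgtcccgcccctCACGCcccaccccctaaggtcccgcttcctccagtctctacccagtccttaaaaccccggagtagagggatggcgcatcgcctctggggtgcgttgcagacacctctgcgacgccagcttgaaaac
*Ahrr*, chr13:74292282-74292581, minus strand: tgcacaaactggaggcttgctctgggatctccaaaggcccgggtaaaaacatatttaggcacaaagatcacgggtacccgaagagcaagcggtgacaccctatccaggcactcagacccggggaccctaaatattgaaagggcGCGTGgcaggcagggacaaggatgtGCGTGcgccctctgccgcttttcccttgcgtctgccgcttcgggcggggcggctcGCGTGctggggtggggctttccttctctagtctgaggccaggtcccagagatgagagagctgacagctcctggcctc
The windows hold 1, 1 and 3 matches, and 10639 of 32851 promoter windows of this length (32.4%) hold one or more, so a match is common and is a description of the letters only.

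*Cyp1a1* was already high at 24 h, at 6299, 4238, 3347 and 3906 CPM, and was at 5218, 5098, 4246 and 5154 CPM at 120 h. The groups overlapped and the log2 change was 0.15 (standard error 1.07, adjusted p = 0.922). In DMSO it was at 2.08, 0.847, 2.49 and 62.9 CPM at 24 h and 9.45, 327, 81.9 and 71.7 CPM at 120 h, with single libraries far above the rest, and its change there was 2.86 (adjusted p = 0.0494). It was higher under TCDD than in DMSO at 24 h by 8.05 (adjusted p = 0.0193, with 0.726% of genes called at that hour) and by 5.33 at 120 h, which did not pass (adjusted p = 0.0593).

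*Cyp1b1* kept climbing. It stood at 111.9, 93.9, 145 and 82.7 CPM at 24 h and at 1226, 1280, 762 and 1269 CPM at 120 h, and in DMSO at 0 in all 4 libraries of 24 h and at 0.0764 to 0.412 CPM at 120 h. The TCDD groups did not overlap, library 71 was lowest at 120 h, and the log2 change was 3.39 (standard error 0.27, adjusted p = 2.61e-07). *Ahrr* rose from 10.3, 3.78, 8.34 and 6.02 CPM to 24.5, 23.7, 20.4 and 24.3 CPM, by 1.70 (standard error 0.37, adjusted p = 0.0017), and was at 0 in DMSO at 24 h, so that the fitted DMSO changes of both genes are set by the prior count and are no bound on the fold.

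*Cyp1a2* and *Tiparp* showed the weight of library 71. *Cyp1a2* went from 2315, 1141, 1385 and 2086 CPM to 3752, 3962, 788 and 3985 CPM, and *Tiparp* from 70.8, 93.8, 96.8 and 80.9 CPM to 128.8, 128.5, 62.7 and 131.2 CPM. In both, 3 libraries of 120 h were above all of 24 h and library 71 was below all of them. Neither change passed (0.85 and 0.40), and without libraries 35 and 71 both did, at 1.17 and 0.60 (*Tiparp* also without library 71 alone). *Nqo1* rose by 1.48, to 130.98, 128.1, 44.7 and 131.8 CPM, and by 0.94 in DMSO.

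*Nfe2l2*, which encodes NRF2, rose by 1.17 and *Ahr* itself by 0.98 (1.54 and 1.06 in DMSO), and *Arnt* did not pass (0.31). The hours of *Ahr* overlapped under TCDD, where library 71 held 22.6 CPM, and its call was lost with 1 surrogate variable (0.54) and with libraries 69, 70 and 72 summed (0.74). *Fmo2*, a flavin monooxygenase, rose by 2.23, with library 71 highest at 33.1 CPM. *Ugt1a6a*, a glucuronosyltransferase of which exons are shared with other *Ugt1a* genes, was at 3.73 to 5.25 CPM at 24 h and 3.46 to 7.34 CPM at 120 h under TCDD. In DMSO it was at 0.0670 to 0.312 CPM and then 1.19 to 2.24 CPM. Its log2 change was 0.34 under TCDD and 2.95 in DMSO, and the difference of -2.62 had the second smallest adjusted p of all genes (0.246).

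**Figure D5:**
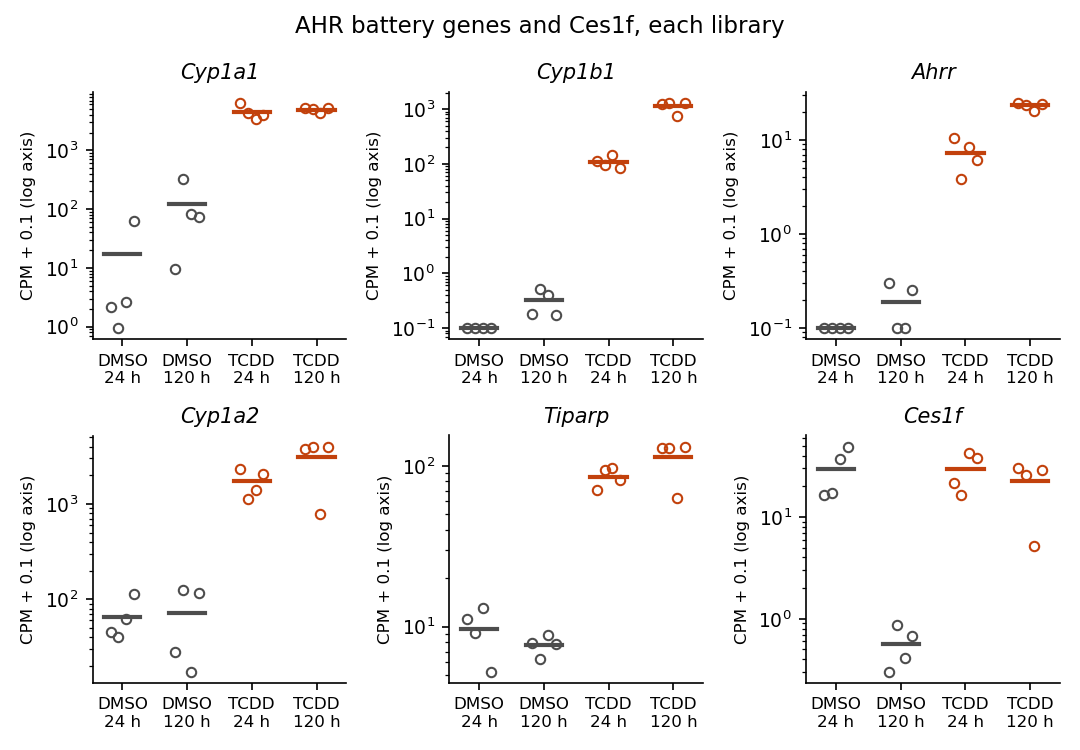
Level of 5 AHR battery genes and *Ces1f* in each of the 16 libraries, as CPM plus 0.1 on a log axis (a level of 0 is drawn at 0.1), with circles for libraries and bars for the mean of 4. *Cyp1a1* is level between 24 and 120 h under TCDD while *Cyp1b1* rises in every library, and *Ces1f* at 120 h is 5.10 to 30.5 CPM under TCDD and at most 0.773 CPM in DMSO.

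*Ces1f*, a liver carboxylesterase gene in a cluster of near copies, is where the course of culture differed between treatments. Under TCDD it stood at 21.3, 16.2, 42.7 and 38.1 CPM at 24 h and at 30.5, 25.5, 5.10 and 28.6 CPM at 120 h. In DMSO it stood at 16.2, 17.2, 36.9 and 48.8 CPM and then at 0.204, 0.773, 0.308 and 0.573 CPM. The hours overlapped under TCDD, where library 71 was lowest, and lay far apart in DMSO.

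Its log2 change was -0.40 under TCDD (standard error 0.48, adjusted p = 0.526) and -6.01 in DMSO (adjusted p = 2.80e-06), a difference of 5.61 (adjusted p = 0.047, just under the threshold). The difference was 5.21 to 5.94 under all 27 alternatives, of which 8 called it, with adjusted p-values from 1.44e-07 to 0.473. Without libraries 35 and 71 the adjusted p was 0.00375, and with libraries 69, 70 and 72 summed 0.473. Of the Ces1 cluster, reads that match several copies were not counted, so the level of *Ces1f* is uncertain in that respect.

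*Reln*, which encodes the matrix glycoprotein reelin, changed the other way round, under TCDD and not in DMSO. It went from 19.4, 13.4, 35.8 and 11.1 CPM to 124.99, 131.2, 52.2 and 140.1 CPM under TCDD and from 3.15 to 12.1 CPM to 2.73 to 8.82 CPM in DMSO. The hours did not overlap under TCDD and did in DMSO. Its log2 changes were 2.49 and -0.38, and the difference of 2.87 did not pass over all genes (adjusted p = 0.397), whereas TCDD against DMSO at 120 h did (4.45, adjusted p = 0.000208).

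Markers of other liver cells were followed in the same libraries, in which fewer cells of a type and less RNA per cell cannot be told apart. Of 15 macrophage markers 1 rose, *Lyz2* (lysozyme, 2.26), although its hours overlapped, with library 71 at 11.8 CPM, the others at 65.7 to 70.7 CPM and those of 24 h at 6.61 to 14.98 CPM, and 2 fell, *Cd68* (-1.77) and *Clec4f*, the Kupffer cell lectin, from 5.02, 3.33, 3.47 and 6.67 CPM to 0.145, 0.260, 0 and 0.464 CPM (-4.33). The summed level of the list was 223 to 346 CPM at 24 h and 186 to 259 CPM at 120 h under TCDD. In DMSO 0 macrophage markers rose and 2 fell, and the sum was 276 to 391 CPM and then 120 to 293 CPM. Of 13 endothelial markers 1 rose, *Emcn* (1.01), and *Stab2*, a sinusoidal scavenger receptor, did not pass (0.24). Their sum was 179 to 386 CPM and then 239 to 274 CPM under TCDD. The call of *Emcn* (adjusted p = 0.0495) was lost without library 71, without libraries 35 and 71, and with libraries 69, 70 and 72 summed. In DMSO 1 endothelial marker rose and 4 fell. The sum there was 208 to 401 CPM and then 135.3 to 204.3 CPM, below every TCDD library of 120 h. The difference of changes had an unadjusted p under 0.05 for 4 of the 13 and was called for 0.

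Of 8 tested stellate cell and fibroblast markers 3 rose, *Dcn* (decorin, 1.97), *Des* and *Reln*, and *Col15a1* fell by 1.31. The sum was 39.6 to 79.3 CPM at 24 h and 69 to 171 CPM at 120 h under TCDD. Most of it at 120 h was *Reln*, with 140.1 of 171 CPM in library 72 and 52.2 of 69 CPM in library 71. In DMSO the sum was 18.8 to 43.4 CPM and then 17.5 to 45.3 CPM. Cholangiocyte markers rose in 8 of 9 cases, with *Tspan8* at 5.66 and *Krt7* at 4.54, and the sum went from 112.9 to 188 CPM to 537 to 762 CPM. *Krt19*, a bile duct keratin on this list and on that of progenitor markers, rose from 2.88, 2.63, 4.07 and 1.51 CPM to 25.6, 27, 33.1 and 25.4 CPM, without overlap (3.32, and 2.42 in DMSO). In DMSO it was at 6.19 to 13.8 CPM and then 37.4 to 81.9 CPM, above every TCDD library at both hours. That difference between treatments was called at 24 h and not at 120 h. The part of changing cell numbers in the matrix, mesenchymal and progenitor results was not tested.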

How the data were processed

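RNA-Seq counts of primary hepatocytes were analysed. Per the labels (the submitters' processing notes, from which the study's methods differ in the FastQC version), the authors checked reads with FastQC 0.11.3, trimmed them with Trimmomatic 0.39 and aligned them with STAR 2.7, whose gene counts (unstranded column, uniquely mapped pairs, not normalized, GRCm39) were deposited for each library. The 4 lines that name no gene were left out (19.3 to 28.4% of all pairs per library). Symbols were matched by gene ID for 52083 of 55359 genes.

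Genes passing filterByExpr (minimum count 10, total 15) in the 16 libraries were fitted together by group with edgeR 4.0.16 (TMM, robust quasi-likelihood test, Benjamini-Hochberg adjustment), without pairing. A call needed an adjusted p under 0.05 and a 1.5-fold change. Culture scores were compared by exact permutation tests, two-sided. The code was tested on simulated data.

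Named genes were the 10 largest called rises and falls under TCDD (groups not overlapping, at least 10 CPM in the higher group, no predicted genes), genes with a called difference, *Pkm*, the AHR battery, up to 2 called rises and 2 falls per list, and 11 marker genes. A few named genes are not reported here. Other members of a list were named after their values were seen. Members and lists were chosen with earlier results of these data known. Alternatives were other scaling, tests (DESeq2 1.42.0, sva 3.50.0), filters, covariates and left-out libraries. Figures were drawn with matplotlib 3.10.9 in Python 3.11.15, statistics run in R 4.3.3.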

Additional observations from a re-analysis of the deposited data

Results flagged for a closer look

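One sample far from the other 3 of its group marked 27 of the groups of 4 tested (culture scores, counts on genes, and levels of 48 named genes under TCDD). Chance marks about 5% of independent groups. The groups tested reuse the same libraries and are not independent, so the 27 cannot be set against that rate. Library 71 accounted for 21 of the 27, all at TCDD 120 h, where the other 3 libraries lie close together. It was the lowest for *Cyp2a4* (44.5 CPM), *Fgfbp1* (32.5), *Cyp1a1* (4246), *Cyp1a2* (788), *Cyp1b1* (762), *Tiparp* (62.7), *Nqo1* (44.7), *Ahr* (22.6), *Alb* (3965) and *Afp* (91.2 CPM). It was the highest for *Marcks* (273 CPM), *Hsd17b6* (0.397), *Cyp3a11* (3.40), *Cyp4a14* (0.340), *Wfdc21* (3.23), *Pkm* (411), *Xdh* (702), *Nfe2l2* (884), *Fmo2* (33.1), *Selenbp1* (1838) and *Vim* (1697 CPM).

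At 24 h under TCDD, library 55 stood apart for *Ms4a4d* (0.534 CPM), library 56 for *S100g* (0.982 CPM) and *Hsd17b6* (55.1 CPM), and library 53 for *Hnf4a* (830.5 CPM). In DMSO the culture score of library 20 at 24 h (-4.78) and of library 34 at 120 h (0.234) lay far below the others. The change of *Ces1f* differed between the treatments, by 5.61 on the log2 scale in the test of the difference itself.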

How the results depend on the processing

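No paired analysis was possible because the labels give no replicate number, animal or isolation for a library. The count under TCDD kept within 1.5 times in every alternative (4521 to 6349) and fell most with libraries 69, 70 and 72 summed (chosen after seeing the data). The DMSO count was 3778 when the fraction of pairs outside genes, which moved with the hour in DMSO, entered as a covariate. The count of called differences was 0 with RLE size factors, without a filter, in 1 fit of all libraries, with the unmapped share as a covariate and with libraries 69, 70 and 72 summed (1134, 2203, 500, 1264 and 864 genes at an unadjusted p under 0.05), and was 20 with 1 surrogate variable, 35 with DESeq2, 6 without libraries 35 and 71 and 2 with counts thinned to the smallest total (the last 2 also chosen after seeing the data). Leaving out 1 library gave 0 to 4, the highest without library 34.

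The score change under TCDD was 5.85 with libraries 69, 70 and 72 as 1 sample, where the exact p of 0.0667 is the smallest possible. The difference of the score changes was 0.179 with genes chosen in the Pkm-delta-DRE TCDD libraries, 0.00262 with log2(CPM + 0.1) and 0.0461 without libraries 35 and 71, and -0.456 to 0.135 with 1 library left out, so its sign is not settled, and it passed in the fit without library 34 alone. With the unmapped share as a covariate the TCDD change was -0.636 for *Cyp1a1*, -0.162 for *Selenbp1* and -0.164 for *Cdkn1a*. It was -0.0489 for *Ugt1a6a* with 1 surrogate variable and -0.0249 for *Cdkn1a* without library 55. None of these 4 genes was called. Of 71 genes named from lists, all that were fitted kept their direction, and 51 were called with the unmapped share as a covariate, the lowest number. The cause of these changes was not tested.

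Precision is limited by 4 libraries a group, 3 of them near copies at 120 h under TCDD. With counts thinned to the smallest total, 15887037, 5898 genes were called under TCDD. Thinning only removes counts, so what more depth would add was not tested.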

Other observations

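At 24 h the libraries of both treatments showed like levels in accession order for some genes. *Saa2* was at 5718, 6113, 419 and 1483 CPM in DMSO libraries 17 to 20 and at 4382, 5514, 342 and 1257 CPM in TCDD libraries 53 to 56. *Pkm* was at 44, 41.6, 220.1 and 102.3 CPM and at 50.6, 56.3, 162 and 137.2 CPM. At 120 h library 35 in DMSO and library 71 under TCDD had the highest summed levels of interferon-stimulated genes of their groups, 1626 and 1459 CPM against 549 to 764 and 457 to 489 CPM in the others. The labels name no preparation, and its part was not tested.

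Among libraries labelled Pkm-delta-DRE, 1 in DMSO at 4 h had a culture score of 1.39 and 1 in DMSO at 96 h a score of -6.34, the most distant from their group means of -4.36 and -1.03. Neither entered the comparisons made here apart from the fit of all libraries.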
